A study of Mus musculus with 6 samples.

Results

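Oxidative phosphorylation subunits are the nuclear-encoded proteins of the mitochondrial respiratory chain and ATP synthase. They were taken by gene symbol and not by any measured value: every gene named alone by a probe set whose symbol starts with Ndufa, Ndufb, Ndufc, Ndufs, Ndufv, Uqcr or Atp5, the genes Sdha, Sdhb, Sdhc and Sdhd, and symbols made of Cox, a digit from 4 to 8 and a letter. This gave 89 of the 22180 genes named alone by a probe set of the array. Of the 89, 79 encode subunits: 32 of complex I, 4 of complex II, 7 of complex III, 19 of complex IV and 17 of complex V. Another 8 are the Ndufaf genes, which encode assembly factors of complex I rather than subunits, and 2 are the pseudogenes Atp5c1-ps and Uqcrh-ps1. Ndufa4, first assigned to complex I and now to complex IV, and its paralogue Ndufa4l2 were counted with complex IV. So was Cox7a2l, a supercomplex factor related to subunit 7a. Subunits encoded in the mitochondrial genome fall outside the symbols used. A further 7 protein-coding genes of these families occurred only on probe sets that name several genes, described with complex I.

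RNA was compared between 3 arrays labelled wild type and 3 labelled Ets1-/-, a genotype the labels give without an allele name. Ets1 encodes an ETS-family transcription factor abundant in lymphocytes. The cells of both groups were CD4+CD8+ double-positive thymocytes, the immature T cells that carry both coreceptors, from C57BL/6 mice aged 5 to 6 weeks, with no treatment named. Both groups were fixed with formaldehyde and then taken with magnetic beads, first for CD8 and then for CD4. Littermate cohorts served as replicates per the labels, and the number of mice behind an array is unstated, so p-values measure the spread between these samples.

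The targeted gene did not separate the groups: the Ets1 probe set had a log2 signal of 9.11, 9.32 and 9.17 on the wild-type arrays and of 9.27, 9.22 and 8.79 on the arrays labelled Ets1-/- (log2 fold change -0.10, limma adjusted p = 0.860). Where that probe set lies relative to the deleted part of the gene is not stated, so it checks no label, and groups are called by their labels throughout. The first array labelled Ets1-/- stood apart, with a median of 3.66 over all probe sets against 4.19 to 4.33 on the other arrays. Many markers of other cells moved with the group at a limma adjusted p under 0.05. On the arrays labelled Ets1-/-, 11 of 16 macrophage and 6 of 11 dendritic cell markers rose. So did 4 of 10 B cell and 6 of 9 mature T cell markers, and 0 fell. Over all genes, 1.29% rose and 0.568% fell. The dendritic cell markers that rose were H2-Aa, H2-Ab1, H2-Eb1, Irf8, Itgax and Bst2. The others did not pass: Xcr1 was at a log2 fold change of -1.15, Zbtb46 at -0.38, Batf3 at -0.25, Flt3 at 0.03 and Siglech at 0.81. The summed macrophage signal was 9.61 to 9.90 (log2) on the wild-type arrays and 11.96 to 12.39 on the others, the dendritic cell sum 8.93 to 9.20 and 11.75 to 11.85, the B cell sum 6.55 to 7.04 and 8.67 to 9.74, and the mature T cell sum 9.75 to 10.03 and 10.73 to 10.96. These sums add linear signals, so the brightest markers weigh most. In the dendritic cell sum these were H2-Aa, H2-Ab1 and H2-Eb1, with means of 10.12, 10.07 and 9.14 on the arrays labelled Ets1-/-. That sum thus says little of the dendritic cell markers that did not pass. The double-positive thymocyte markers had a sum of 13.66 to 13.70 and of 13.58 to 13.68, and 1 of 9 of them, Ptcra, rose. The groups did not overlap for 3 of the 9 in the lower direction, against 16.1% of all genes: Dntt at -0.46, Rag2 at -0.29 and Cd3e at -0.12. In the higher direction they did not overlap for 2, Ptcra at 1.50 and Cd4 at 0.13, against 5.76%. The values come without a detection call, so no marker can be listed as absent, and the part of other cells in the results on respiratory genes was not tested.

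Oxidative phosphorylation passes electrons from NADH through complex I, or from succinate through complex II, to ubiquinone, and on through complex III, cytochrome c and complex IV to oxygen. Complexes I, III and IV pump protons across the inner mitochondrial membrane, and complex V, the ATP synthase, uses their return to make ATP. Many promoters of these genes carry sites for NRF1, for YY1 and for GABP, whose alpha subunit Gabpa belongs to the same ETS family of transcription factors as Ets1, and complex IV has tissue-restricted forms of several subunits that replace the common ones in heart, muscle, lung or testis.

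The subunits of the respiratory chain and ATP synthase had nearly the same signal in both groups. Of the 89 genes, 1 rose on the arrays labelled Ets1-/- (Cox6a2, the heart and muscle form of subunit 6a) and 0 fell at a limma adjusted p under 0.05, the threshold used throughout, adjusted over all genes. Over all genes tested, 1.29% rose and 0.568% fell. At an unadjusted p under 0.05 the counts among the 89 were 1 higher (Cox6a2) and 1 lower (Ndufb11), against 4.54% and 8.62% of all genes. The arrays of the groups did not overlap for 5 of the 89 genes in the higher direction, against 5.76% of all genes, and for 2 in the lower direction, against 16.1% of all genes. Among the 69 subunits brighter than the 75th percentile of all probe sets, 4 did not overlap and were higher, against 10.5% of the 6246 genes past that filter, and 1 was lower, against 21.8%. Fewer cells of a type and less RNA per cell cannot be told apart in such bulk samples.

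The 95% interval lay wholly between a 2-fold decrease and a 2-fold increase for 70 of the 79 subunits (88.6%), against 46.0% of all genes. Signal strength differs between these sets, and among genes past the 75th percentile the same held for 67 of 69 subunits (97.1%) and for 61.7% of all such genes. That filter does not equalise signal. On each array the median of these subunits was 1.42 to 1.90 log2 units above that of all such genes. By complex the counts were 31 of 32 for complex I, 4 of 4 for complex II, 7 of 7 for complex III, 12 of 19 for complex IV and 16 of 17 for complex V. The intervals are per gene and not adjusted for their number. The subunits whose interval reached past a 2-fold change on at least 1 side were Ndufb11, Cox7c, Cox4i2, Cox6a2, Cox7a1, Cox7b2, Cox8c, Ndufa4l2 and Atp5g1, so 6 of the 8 tissue-restricted forms of complex IV are among them. The median standard error of the log2 fold change was 0.22 for subunits and 0.30 for all genes.

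**Figure D1:**
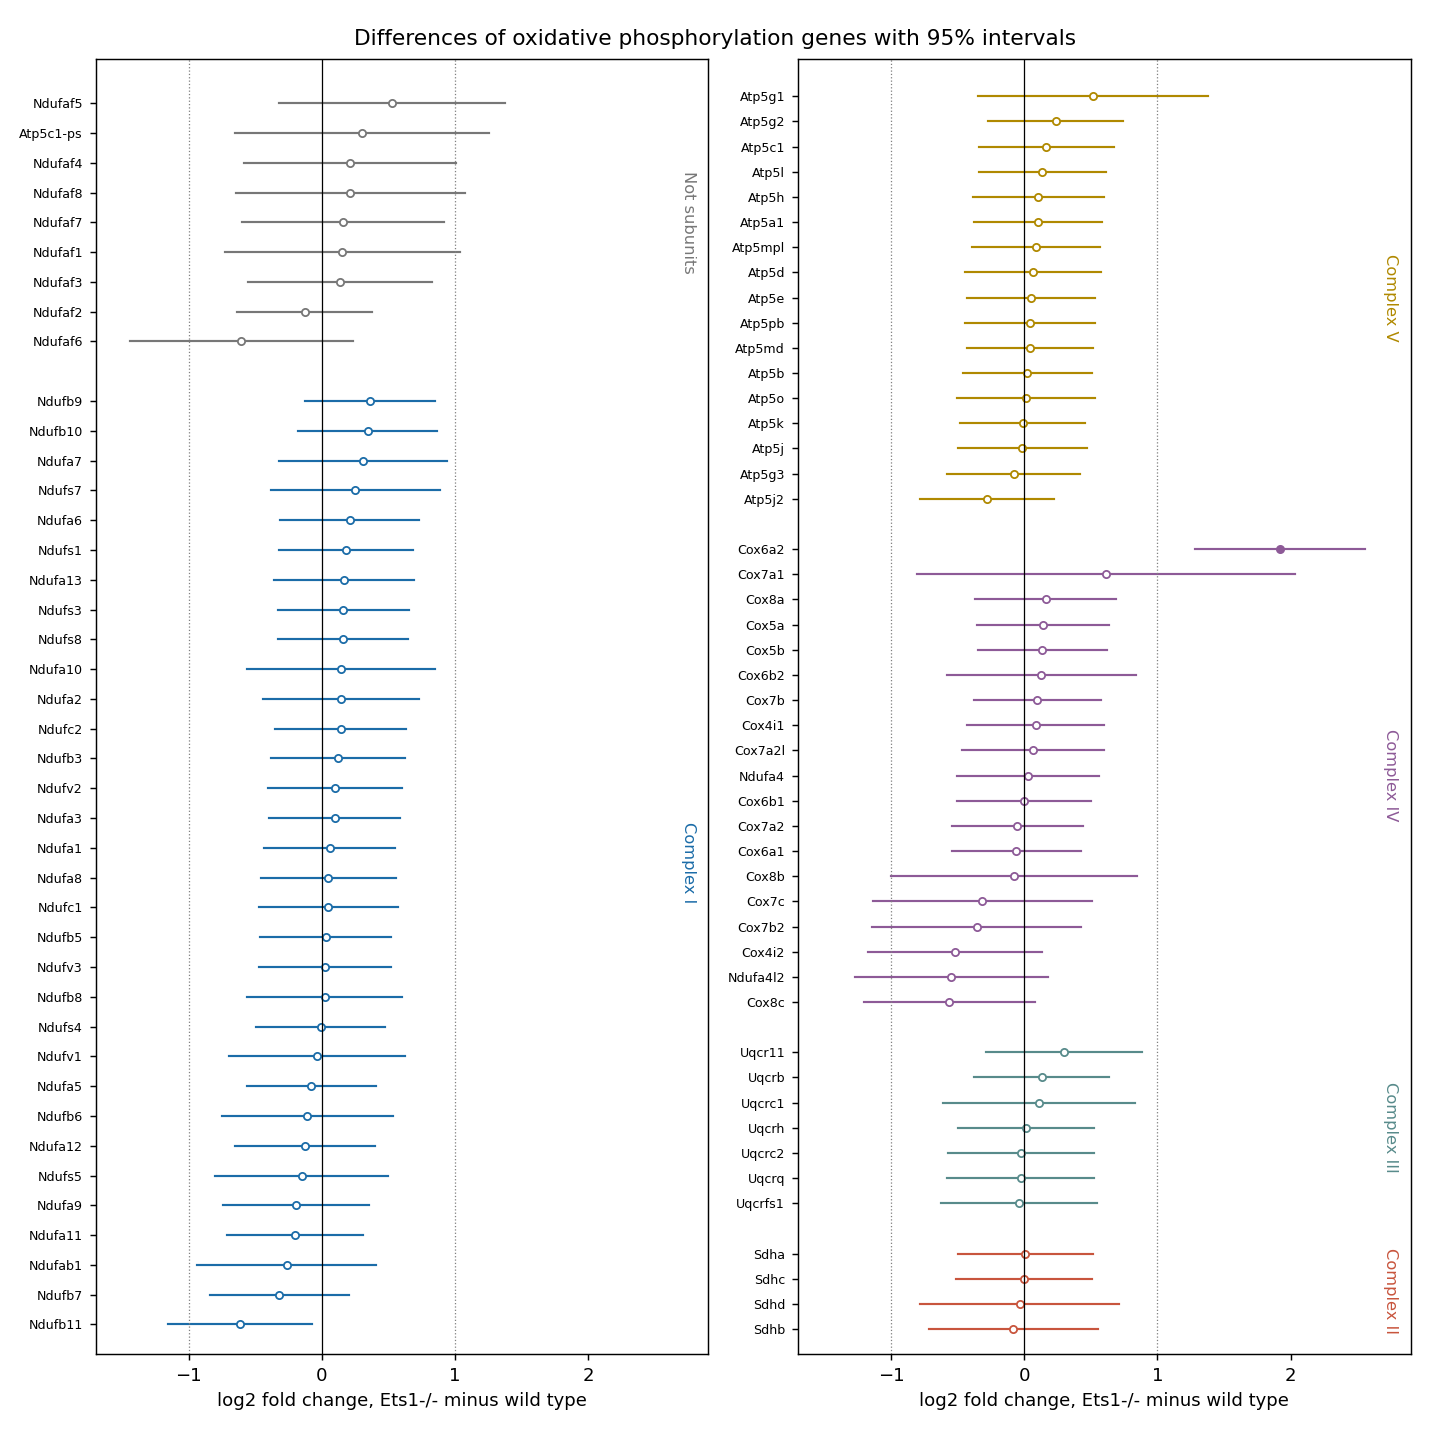
Log2 fold change (horizontal axis, labelled Ets1-/- minus wild type) of each gene with its 95% interval from limma, by complex, for the 89 genes except Uqcrh-ps1, left out because its interval runs from -9.38 to 7.48. Filled points passed the threshold, which only Cox6a2 did, and dotted lines mark a 2-fold change in either direction, between which most bars lie.

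The median log2 fold change of the 89 genes was 0.05, while that of all genes was -0.22 and that of genes past the 75th percentile -0.13. Relative to all genes the 89 genes thus lay at 0.27, complex I at 0.27, complex II at 0.20, complex III at 0.23, complex IV at 0.25 and complex V at 0.27. These offsets rest in part on 1 array. On the first array labelled Ets1-/-, the median difference from the wild-type mean was -0.59 over all genes and -0.39 over genes past the 75th percentile, but -0.10 over the 79 subunits. On the other arrays labelled Ets1-/- the subunits stood at 0.08 and 0.15, and all genes at 0.01 and -0.03. Without the first array the 89 genes lay at 0.15 relative to all genes, and after quantile normalization of the 6 arrays at 0.11. The size of the offset thus depends on how the arrays are scaled and on that array, while its sign was the same in these settings. An offset above 0 was not particular to these genes. Genes past the 75th percentile lay at 0.09 relative to all genes and the cytosolic ribosome at 0.37. Mitochondrial import and carriers lay at 0.22, the mitochondrial ribosome at 0.19, the tricarboxylic acid cycle at 0.18 and regulators of mitochondrial gene expression at 0.03.

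**Figure D2:**
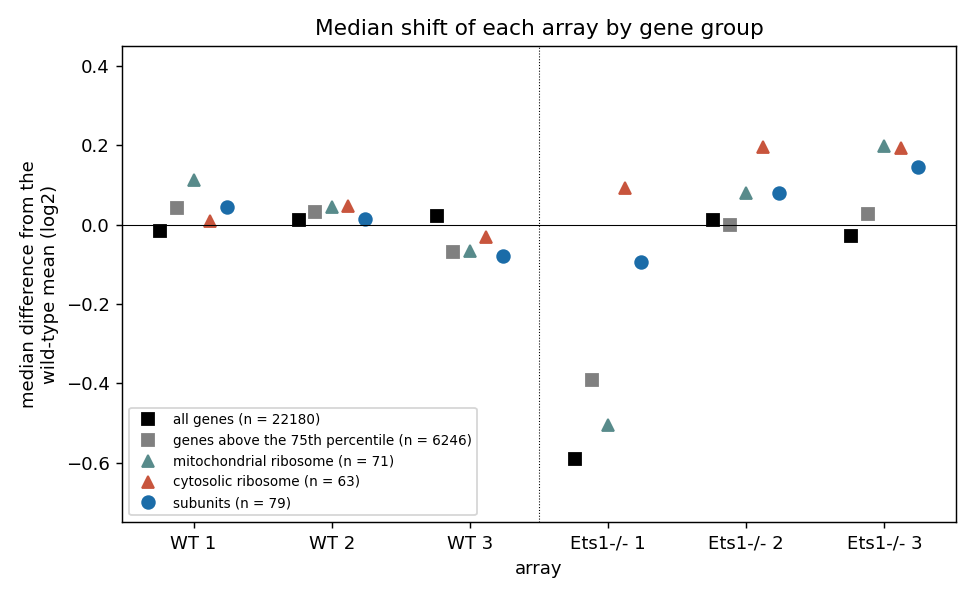
Median difference from the wild-type mean (vertical axis, log2) on each of the 6 arrays (horizontal axis) for all genes, genes past the 75th percentile, the mitochondrial ribosome, the cytosolic ribosome and the subunits. On the first array labelled Ets1-/- all genes stood at -0.59 and the subunits at -0.10, and on the other arrays each set lay within 0.20 of the wild-type mean.

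The array with the lowest signal in the group labelled Ets1-/- was the first for 77 of the 89 genes (86.5%), against 79.6% of all genes. The third array was the highest of that group for 53 (59.6%), against 44.3% of all genes. The median SD of the subunits over the wild-type arrays was 0.13 in complex I, 0.14 in complex II, 0.26 in complex III, 0.17 in complex IV and 0.08 in complex V. Over the arrays labelled Ets1-/- it was 0.17, 0.27, 0.18, 0.19 and 0.12.

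**Figure D3:**
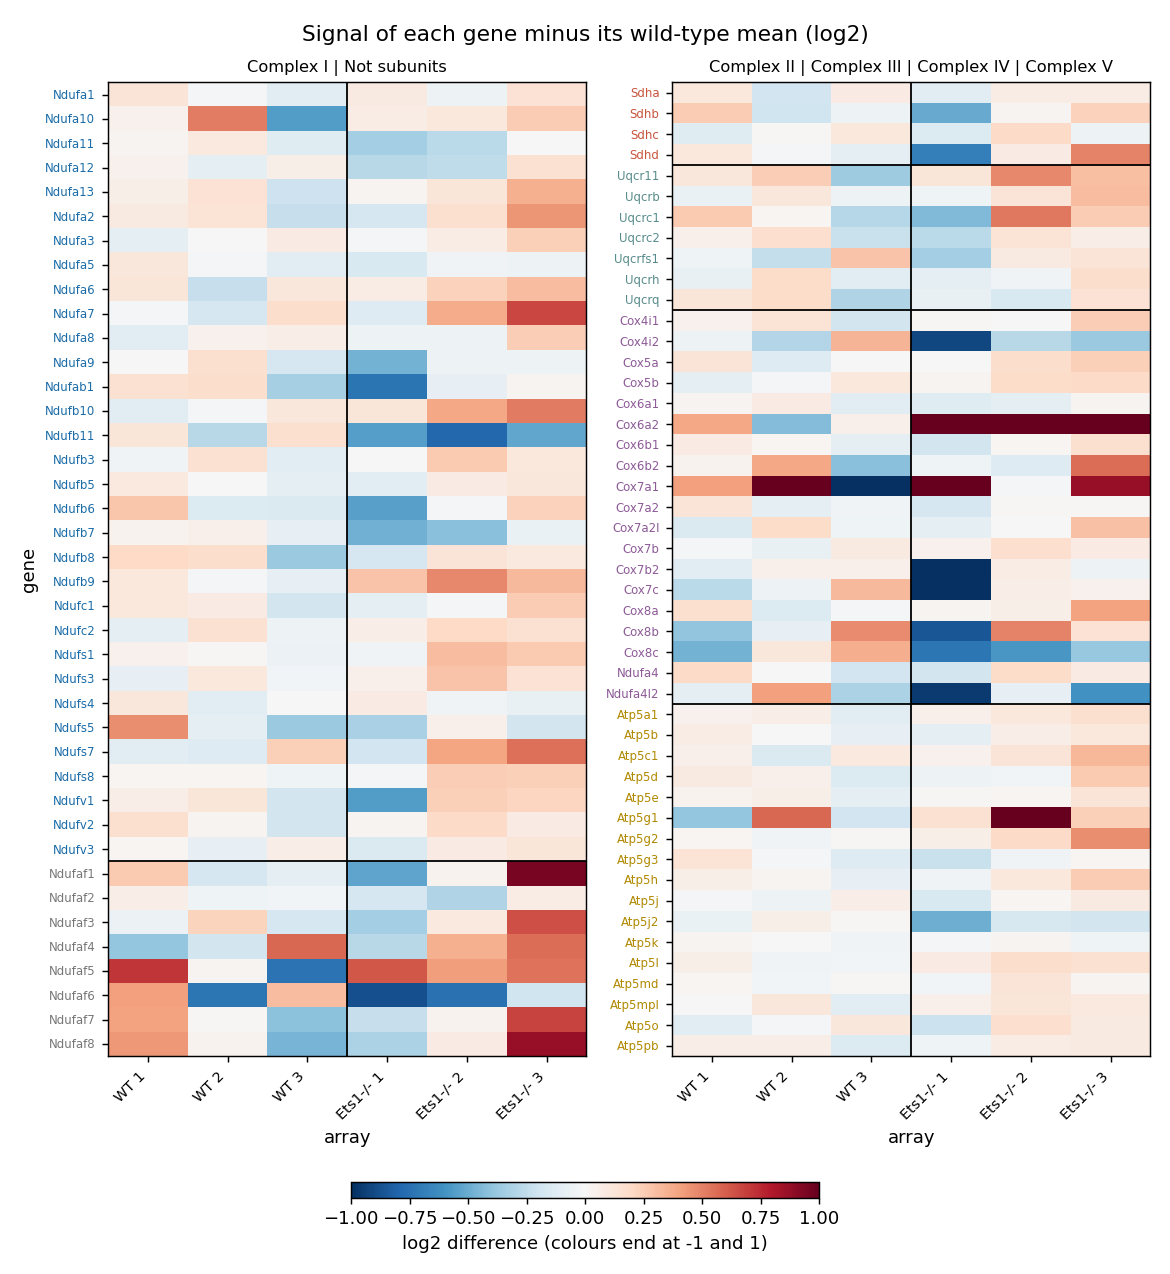
Log2 signal of each gene minus its wild-type mean (colour, ending at -1 and 1) on the 6 arrays (columns) for the 79 subunits and 8 Ndufaf assembly factors (rows, by complex). Cox6a2 is past the colour range on each array labelled Ets1-/-, while most other rows stay pale, and Cox7c, Cox7b2 and Cox8b have their lowest value on the first array labelled Ets1-/-.

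Promoters of the genes were read to show what they share beyond the symbol. A RefSeq table of GRCm38.p6, covering 250 bases before to 50 after a gene's start, held 72 of the 89 genes; not held were Uqcrh-ps1, Ndufaf6, Ndufa2, Sdhc, Atp5c1-ps, Uqcrq, Uqcrc2, Cox4i2, Cox8c, Atp5a1, Ndufa4l2, Uqcrb, Atp5mpl, Cox4i1, Ndufs1, Ndufb9 and Cox6a2. The ETS core CCGGAAG, searched on both strands, occurred in 19 of the 72 (26.4%) and in 9.93% of the 27025 genes of the table. The NRF1 core GCGCATGC occurred in 12 (16.7%), against 3.05% of all genes, and the YY1 core AAGATGGC in 10 (13.9%), against 3.19%. The ETS core ends in the letters with which the YY1 core starts, so matches of these can overlap. These shares are descriptions of letters in a window and name no bound site. The promoters compared were not matched for base composition, so the shares do not set these genes apart from others of like composition. For each complex, the upstream stretch whose ETS core lay nearest to the gene's start is shown, because this core is the motif of the factor family that the genotype label concerns; it ends at the base before the start, reads 5′ to 3′ on the gene's strand, and has the core or its reverse complement in capitals. The stretch of Sdhd stops after 51 bases because Timm8b starts head-to-head 52 bases upstream, and that of Atp5h is limited likewise by Kctd2.
Ndufb7 (complex I, chr8:83566578-83566757, plus strand): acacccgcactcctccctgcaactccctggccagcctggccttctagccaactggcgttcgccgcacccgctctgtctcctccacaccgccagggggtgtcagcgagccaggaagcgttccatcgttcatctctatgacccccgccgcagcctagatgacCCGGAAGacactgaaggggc
Sdhd (complex II, chr9:50603850-50603900, minus strand): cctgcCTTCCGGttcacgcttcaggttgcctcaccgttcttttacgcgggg
Uqcrh (complex III, chr4:116075071-116075250, minus strand): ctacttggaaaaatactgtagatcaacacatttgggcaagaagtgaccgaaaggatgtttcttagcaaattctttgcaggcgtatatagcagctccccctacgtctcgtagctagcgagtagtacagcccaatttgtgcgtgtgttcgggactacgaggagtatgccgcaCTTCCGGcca
Cox6a1 (complex IV, chr5:115348959-115349138, minus strand): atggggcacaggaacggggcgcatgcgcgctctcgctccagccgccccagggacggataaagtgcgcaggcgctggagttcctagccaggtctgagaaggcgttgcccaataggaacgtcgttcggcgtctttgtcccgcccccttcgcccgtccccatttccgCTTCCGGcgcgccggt
Atp5h (complex V, chr11:115419920-115420093, minus strand): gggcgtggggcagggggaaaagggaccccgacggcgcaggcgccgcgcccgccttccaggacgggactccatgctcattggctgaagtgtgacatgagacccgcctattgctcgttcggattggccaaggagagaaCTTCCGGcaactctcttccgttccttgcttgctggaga
The first base of the core lay 20 bases before the start in Ndufb7, 46 in Sdhd, 10 in Uqcrh, 16 in Cox6a1 and 38 in Atp5h.

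No subunit gene in the promoter table passed the threshold, with or without the ETS core, since the table did not hold Cox6a2. With the core, log2 fold changes ran from -0.32 to 0.30 with a median of 0.01 over 17 genes. The 95% interval of 17 of 17 lay within a 2-fold change. The 48 subunit genes without the core had a median of 0.04, with 43 of the 48 intervals within that size. The sets were not matched for signal. The wider intervals without the core were those of Ndufb11, Cox7c, Cox7a1, Cox7b2 and Atp5g1, with mean signals of 7.39, 5.85, 4.52, 4.13 and 3.26. For the genes shown, the values were -0.32 for Ndufb7, -0.03 for Sdhd, 0.01 for Uqcrh, -0.06 for Cox6a1 and 0.11 for Atp5h. Ndufb7, an accessory subunit of complex I, had 9.48, 9.49 and 9.36 on the wild-type arrays and 8.96, 9.03 and 9.38 on the arrays labelled Ets1-/- (limma adjusted p = 0.583). The groups overlapped at the third array labelled Ets1-/-.

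Complex I takes electrons from NADH. Its 32 genes had a median log2 fold change of 0.05, from -0.62 to 0.36, and 0 of 32 passed the threshold in either direction. The 6 core subunits measured, which hold the flavin and iron-sulfur centres, had a median of 0.16 and the 26 accessory subunits one of 0.04. Ndufv1, the flavoprotein that oxidises NADH, was at -0.04. Its partner Ndufv2 was at 0.10. The iron-sulfur subunits Ndufs1, Ndufs7 and Ndufs8 had values of 0.18, 0.25 and 0.16, and Ndufs3 of the peripheral arm 0.16. The 95% interval of each of these 6 covered 0 and lay within a 2-fold change.

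Ndufb11, an accessory subunit of the membrane arm, had the lowest value of complex I. Its log2 signal was 7.82, 7.42 and 7.86 on the wild-type arrays and 7.15, 6.92 and 7.18 on the arrays labelled Ets1-/-. The groups did not overlap, and each array labelled Ets1-/- lay under each wild-type array. With a log2 fold change of -0.62 ± 0.23 (SE; 95% interval -1.16 to -0.08) and a limma adjusted p of 0.314, it did not pass the threshold over all genes. The value stayed between -0.76 and -0.53 when each array was left out in turn. It was -0.54 after quantile normalization, -0.48 after cyclic loess and -0.41 after median centring, so its size depends on how the arrays are scaled.

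Ndufb9 and Ndufb10, also accessory subunits of the membrane arm, had the highest values. Ndufb9 had 8.86, 8.74 and 8.67 on the wild-type arrays and 9.04, 9.24 and 9.08 on the arrays labelled Ets1-/-, a difference of 0.36 ± 0.21 (SE) with a limma adjusted p of 0.521. Ndufb10 had 8.66, 8.76 and 8.89, then 8.89, 9.16 and 9.29, a difference of 0.34 with a limma adjusted p of 0.566. Neither gene's groups overlapped, though the nearest arrays of Ndufb10 both round to 8.89. Ndufab1, the mitochondrial acyl carrier protein that is also a complex I subunit, stood at -0.26 and its first array labelled Ets1-/- was the lowest at 6.08.

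Probe sets that are shared with other genes bear on complex I. Ndufs5 had a dim probe set of its own, with group means of 2.94 and 2.78. A probe set naming Ndufs5 together with its pseudogene Ndufs5-ps had 5.76, 6.79 and 6.96 on the wild-type arrays and 4.68, 5.85 and 5.51 on the others. That difference of -1.16 had an unadjusted p of 0.0401 and a limma adjusted p of 0.426 over all probe sets, the groups overlapped, and the transcript it measures cannot be told apart. Over the 10 probe sets that name several genes of which 1 or more belong to these families, 0 were called. The 7 of them that hold genes with no probe set of their own (Cox6c, Ndufb2, Ndufb4, Ndufb4b, Ndufb4c, Ndufs6 and Uqcr10) had values from -0.06 to 0.14.

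The 8 Ndufaf assembly factors, which build complex I and are not part of it, had a median of 0.16 and 0 of 8 passed. Ndufaf5, a hydroxylase of a complex I subunit, had the highest value at 0.53 and Ndufaf6 the lowest at -0.61, with limma adjusted p of 0.581 and 0.531. Their replicates spread more than those of the subunits: Ndufaf5 had 6.64, 5.95 and 5.19 on the wild-type arrays alone. The pseudogene Atp5c1-ps was at 0.30 and Uqcrh-ps1 at -0.95, and the latter had values of -8.92 and -9.11 on the third array of each group, so its difference cannot be read.

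Complex II, succinate dehydrogenase, links the tricarboxylic acid cycle to the chain. Sdha, its flavoprotein, had 8.45, 8.15 and 8.42 on the wild-type arrays and 8.22, 8.41 and 8.41 on the arrays labelled Ets1-/-, a difference of 0.01 (95% interval -0.50 to 0.51). Sdhb, the iron-sulfur subunit, had 8.03, 7.57 and 7.72, then 7.27, 7.80 and 8.01, a difference of -0.08. These groups overlapped throughout. Sdhc, a membrane anchor, had 8.32, 8.46 and 8.55, then 8.30, 8.63 and 8.39, a difference of -0.00. Sdhd, the other anchor, had 6.99, 6.86 and 6.79, then 6.20, 6.96 and 7.38, a difference of -0.03 (95% interval -0.78 to 0.71). Its arrays labelled Ets1-/- lay on both sides of the wild-type arrays, with the lowest on the first array. None of the 4 passed the threshold, with limma adjusted p from 0.911 to 0.999.

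Complex III passes electrons from ubiquinol to cytochrome c. Its 7 genes ran from -0.04 to 0.30 with a median of 0.01, and 0 of 7 passed. Uqcrfs1, the Rieske iron-sulfur protein, had 7.42, 7.23 and 7.75 on the wild-type arrays and 7.12, 7.55 and 7.59 on the arrays labelled Ets1-/-, a difference of -0.04. The core proteins Uqcrc1 and Uqcrc2 were at 0.11 and -0.02, and the hinge protein Uqcrh at 0.01. Uqcr11, a small subunit, had the highest value: 8.29, 8.42 and 7.82, then 8.30, 8.66 and 8.48, a difference of 0.30 (limma adjusted p = 0.633). The spread comes with a low value on the third wild-type array, and without it the difference was 0.12. Uqcrb and Uqcrq, further small subunits, were at 0.13 and -0.03.

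Complex IV, cytochrome c oxidase, gives the electrons to oxygen and held the gene that rose. Cox6a2 had a log2 signal of 4.40, 3.58 and 4.06 on the wild-type arrays and of 5.73, 6.09 and 5.99 on the arrays labelled Ets1-/-. The groups did not overlap, and the gap between them exceeded the range within either. This was a difference of 1.92 ± 0.28 on the log2 scale (SE), bounded by 1.28 and 2.56 in its 95% interval, at a limma adjusted p of 0.0145. Cox6a1, the common form of the same subunit, had 10.85, 10.91 and 10.71 and then 10.71, 10.74 and 10.85, a difference of -0.06 (95% interval -0.54 to 0.42). Its groups overlapped, and its interval lay within a 2-fold change.

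The call for Cox6a2 comes from a dim signal and from few arrays. Its mean over the 6 arrays was 4.97, short of the 75th percentile of all probe sets at 5.73, and a pseudocount of 16 on the linear scale reduced the difference to 1.25 (limma adjusted p = 0.00273). The call was lost without wild-type replicate 2 or 3 or without replicate 2 or 3 of the group labelled Ets1-/-, where the adjusted p was 0.0515, 0.0543, 0.0691 and 0.0568 with differences of 1.70 to 1.95. It was kept without the first array of either group: with a difference of 2.02 and a limma adjusted p of 0.0305 without that labelled Ets1-/-, and with 2.11 and 0.0234 without that labelled wild type. Of the macrophage, dendritic cell, B cell and mature T cell markers, 11 of 16, 6 of 11, 4 of 10 and 6 of 9 rose on the same arrays as Cox6a2. Their part in its difference was not tested.

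Over the 19 genes of complex IV the values ran from -0.56 to 1.92 with a median of 0.03. The 11 common subunits had a median of 0.06 and 0 of 11 passed, and the 8 tissue-restricted forms had a median of -0.22, equal to that of all genes. Cox4i2, the lung form of subunit 4, had 4.99, 4.74 and 5.38 on the wild-type arrays and 4.12, 4.76 and 4.66 on the arrays labelled Ets1-/- (-0.52, limma adjusted p = 0.494). Cox7a1, the heart and muscle form of subunit 7a, had 4.62, 5.23 and 2.77, then 5.21, 4.19 and 5.08, a difference of 0.61 (95% interval -0.81 to 2.03). That interval leaves its direction unknown, and without the third wild-type array the value was -0.10. Cox8b, the heart and muscle form of subunit 8, was at -0.07. Cox8c, its testis form, had 3.08, 3.66 and 3.91, then 2.83, 2.96 and 3.17 (-0.56, limma adjusted p = 0.453), and Ndufa4l2 was at -0.55. Cox6b2, the testis form of subunit 6b, was at 0.13 and Cox7b2, a second form of subunit 7b, at -0.36. The groups of these 7 genes overlapped. The common forms Cox4i1, Cox7a2 and Cox8a were at 0.09, -0.05 and 0.16. Cox7a2l, a supercomplex factor related to subunit 7a that was counted among the 11, was at 0.06.

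**Figure D4:**
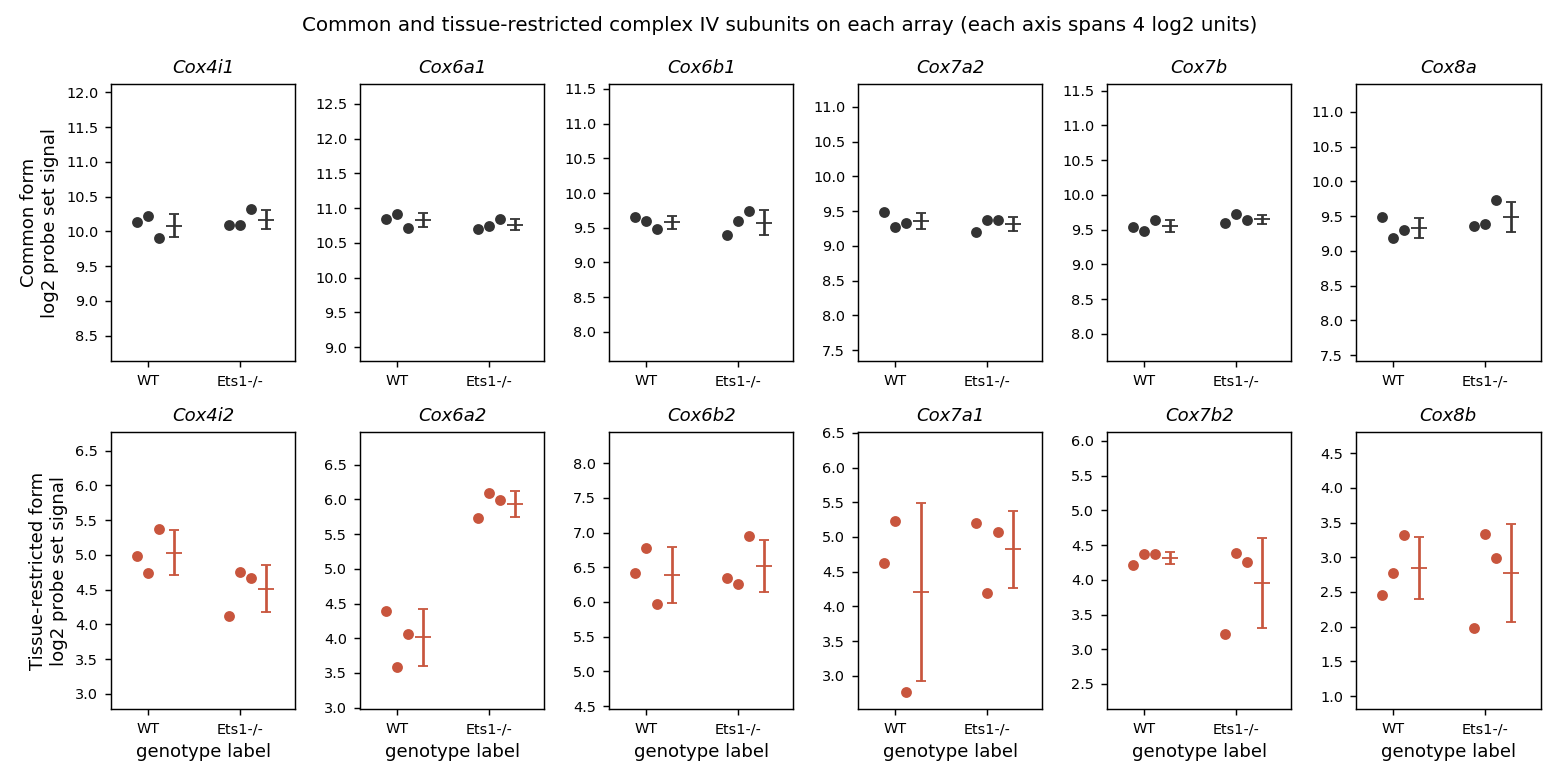
Log2 probe set signal (vertical axes, each spanning 4 units and set per gene) of common (upper row) and tissue-restricted (lower row) forms of 6 complex IV subunits, with points for the 3 arrays of each label and bars for mean ± SD. Cox6a2 is separated between the groups, 3.58 to 4.40 against 5.73 to 6.09, and the common forms overlap between the groups in each of the 6 panels; levels of different probe sets are not compared.

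Complex V makes ATP. Its 17 genes ran from -0.28 to 0.51 with a median of 0.05, and 0 of 17 passed. The F1 head, where ATP is made, had values close to 0: Atp5a1 (alpha) was at 0.11, Atp5b (beta) at 0.02, Atp5c1 (gamma) at 0.17, Atp5d (delta) at 0.06 and Atp5e (epsilon) at 0.05. Atp5b, the catalytic subunit, had 10.24, 10.18 and 10.09 on the wild-type arrays and 10.07, 10.23 and 10.27 on the arrays labelled Ets1-/-, with a 95% interval of -0.46 to 0.51. The peripheral stalk genes Atp5pb, Atp5h, Atp5j and Atp5o were at 0.04, 0.11, -0.01 and 0.02. For each of these 9 genes the interval lay within a 2-fold change.

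The c ring of the rotor is encoded by 3 genes whose mature proteins are the same. Atp5g1 had 2.62, 3.58 and 2.82 on the wild-type arrays and 3.15, 4.16 and 3.24 on the arrays labelled Ets1-/-, a difference of 0.51 (95% interval -0.35 to 1.38; limma adjusted p = 0.592). Atp5g2 had 9.38, 9.32 and 9.36, then 9.41, 9.54 and 9.81, a difference of 0.24 (limma adjusted p = 0.662). Atp5g3 had 9.26, 9.11 and 8.99, then 8.90, 9.08 and 9.14, a difference of -0.08. The groups did not overlap for Atp5g2, with 9.38 and 9.41 on the nearest arrays, and overlapped for the other genes. Atp5j2, the f subunit of the membrane part, had 5.15, 5.27 and 5.23, then 4.73, 5.06 and 5.04 (-0.28, limma adjusted p = 0.614). Its groups did not overlap, and after median centring the difference was -0.07. Atp5l, the g subunit, also did not overlap (0.14; it is named because it completes the 5 higher genes, after its values were seen).

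A second probe set gave a different value for some of the genes. Of 9 genes with several probe sets, the values differed by over 0.3 in 2. For Atp5h the brighter probe set gave 0.11 and the other -0.58, and for Ndufa11, an accessory subunit of complex I, the brighter gave -0.20 and the other -0.70. Neither second probe set passed the threshold over all probe sets (limma adjusted p = 0.477 and 0.513), and averaging all probe sets of a gene left 1 of the 89 genes called.

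Other genes of the pathway were counted from lists of function. None of 37 further assembly factors of the complexes, 17 electron carriers and shuttles, 18 genes of the tricarboxylic acid cycle and pyruvate entry, 71 genes of the mitochondrial ribosome or 21 genes of import and carriers passed the threshold in either direction. Their medians were -0.07, -0.06, -0.04, -0.03 and -0.00. At an unadjusted p under 0.05, 1, 0, 1, 0 and 0 of them were higher and 1, 0, 1, 1 and 0 lower, against 4.54% and 8.62% of all genes. Cycs, the cytochrome c that links complexes III and IV, had 8.88, 8.93 and 8.74 on the wild-type arrays and 8.92, 9.14 and 8.95 on the arrays labelled Ets1-/- (0.15, limma adjusted p = 0.765). Cyc1, the cytochrome c1 of complex III, which the symbols do not take, had 8.37, 8.15 and 7.86, then 7.83, 7.94 and 8.20 (-0.14, limma adjusted p = 0.816). The groups overlapped for both. The mitochondrial ribosome, which makes the mitochondrially encoded subunits, stood at -0.50 on the first array labelled Ets1-/- and at 0.08 and 0.20 on the others, while the subunits moved over a narrower range. The 63 genes of the cytosolic ribosome had a median of 0.15 with 0 called by limma (1 higher and 1 lower at an unadjusted p under 0.05, with the same shares over all genes). They stood at 0.09, 0.19 and 0.19 on the arrays labelled Ets1-/-. Their groups did not overlap for 28 of 63 in the higher direction, against 5.76% of all genes, and for 0 in the lower direction, against 16.1%.

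**Figure D5:**
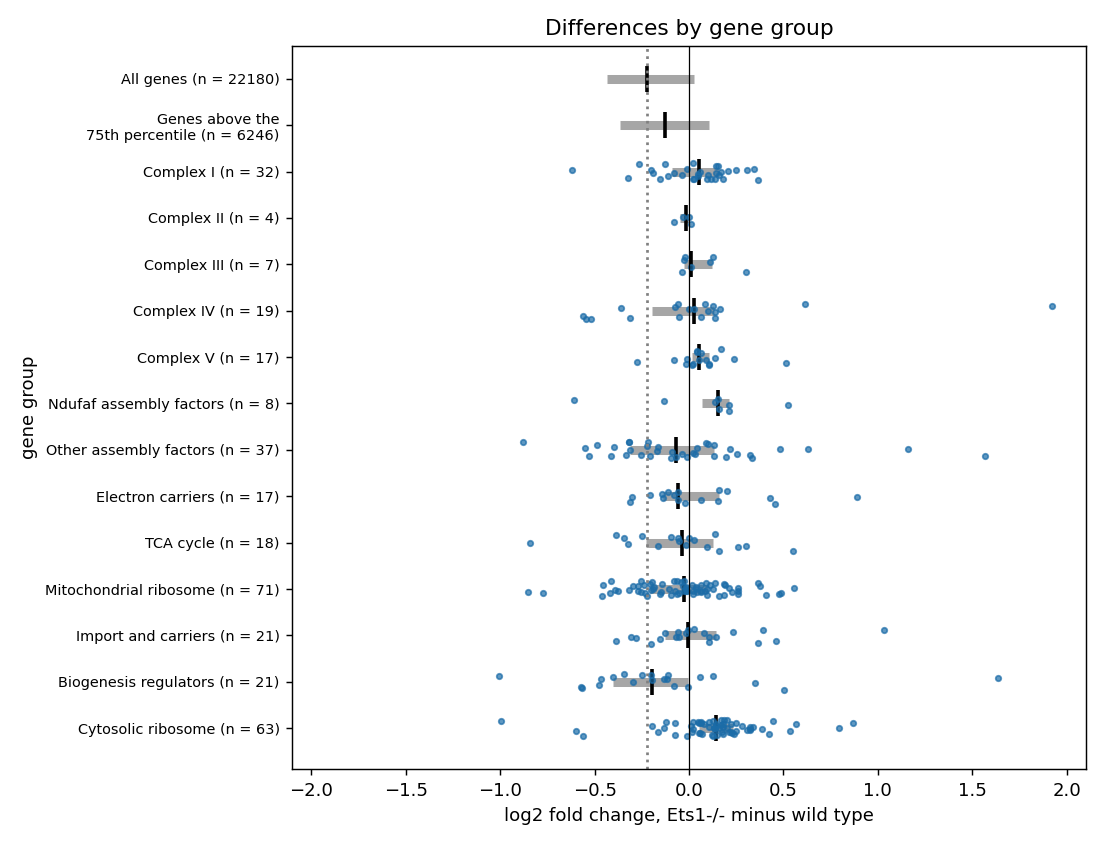
Log2 fold change (horizontal axis, labelled Ets1-/- minus wild type) of the genes of each complex and of other lists (rows), with the median as a tick, the middle 50% as a grey bar and genes as points; the dotted line is the median of all genes at -0.22. Each complex lies to the right of that line, with medians from -0.02 to 0.05, and the point at 1.92 is Cox6a2.

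Regulators of mitochondrial gene expression were the list in which a gene changed. Of 21 measured, 1 rose and 0 fell, against 1.29% and 0.568% of all genes, and the median was -0.20. Myc, a transcription factor that drives growth and ribosome and mitochondrial biogenesis, had 6.58, 6.37 and 5.58 on the wild-type arrays and 7.59, 7.76 and 8.08 on the arrays labelled Ets1-/-. The groups did not overlap. The difference of 1.64 ± 0.32 (SE) had a 95% interval from 0.90 to 2.37 at a limma adjusted p of 0.0499, and leaving out any 1 of the 6 arrays ended the call (limma adjusted p from 0.0687 to 0.148). Many of the markers of other cells given at the start rose on the same arrays, and their part in this difference was not tested.

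Apart from Myc, no regulator measured from this list passed the threshold. Nrf1, nuclear respiratory factor 1, had 7.28, 7.07 and 7.10 on the wild-type arrays and 5.32, 6.79 and 6.32 on the arrays labelled Ets1-/-, a difference of -1.01 (95% interval -1.87 to -0.14; limma adjusted p = 0.303). Its groups did not overlap, and without the first array labelled Ets1-/- the difference was -0.60. Gabpa, the DNA-binding subunit of GABP, had 8.27, 8.17 and 8.42, then 7.57, 8.12 and 7.97 (-0.40, limma adjusted p = 0.533), and -0.24 without that array. Its groups did not overlap. Gabpb1, the partner subunit, was at -0.57, the coactivator Ppargc1b at -0.47 and Tfam, which packages and transcribes mitochondrial DNA, at -0.29, with limma adjusted p of 0.489, 0.528 and 0.637. Those values compare with the median of -0.22 over all genes. Of the 21 regulators, 3 had groups that did not overlap in the lower direction, against 16.1% of all genes. In the higher direction it was 1, Myc, against 5.76%.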

How the data were processed

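RNA of 3 wild-type and 3 Ets1-/- labelled samples was measured on single-channel Affymetrix arrays. The authors deposited a table of log2 values for 41345 probe sets; their range shows the log2 scale, and affy is the tool named in the submitters' processing notes, without a version. For background correction, normalization and genome build, nothing is given in the sources used here. Probe sets were named through the platform annotation: 23521 named 1 gene, 1814 several and 16010 none here. For each of 22180 genes the probe set with the highest mean over the 6 arrays was used. No sample was dropped or imputed.

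Differences were fitted with limma 3.58.1 (lmFit and eBayes, two-sided) in R 4.3.3, labelled Ets1-/- minus wild type without covariates, with Benjamini-Hochberg adjustment over all genes and a threshold of 0.05. The fit was tested on simulated data with independent normal errors. The simulated arrays had no shift of a whole array, so that test does not cover the shift of the first array labelled Ets1-/-. The number of arrays limits the precision: an exact permutation test of 3 against 3 cannot give a p under 0.1. Lists are described by counts and medians, without set tests. The genes and lists were chosen with earlier results of these data known. The text names every called gene, the 3 smallest p and the highest and lowest value of each complex, all Sdh genes, Cox4i2, Cox6a1, Cox6a2, Cox7a1, Cox7a2, Cox8a, Cox8b, Gabpa, Gabpb1, Nrf1, Tfam, Cycs, Cyc1, Ppargc1b, Myc and called genes of the pathway lists; other genes are named as parts of whole groups or after their values were seen. All 89 symbols matched the RefSeq gene table of GRCm38.p6, and promoters came from RefSeq on that build. Alternatives were quantile normalization, median centring, cyclic loess, a pseudocount of 16, filters on dim probe sets, averaged probe sets, other variance settings, array weights, a replicate block and the omission of each array; quantile normalization with the pseudocount was added after seeing the data. Motifs were searched and plots drawn with matplotlib 3.10.9, numpy 2.4.6 and pandas 2.3.3 in Python 3.11.15.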

Additional observations from a re-analysis of the deposited data

How the results depend on the processing

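Across every alternative run, 0 of the 89 genes passed the threshold as lower. The count of higher genes was 1 (Cox6a2) except with genes past the 75th percentile, where it was 0 because Cox6a2 was filtered out; with each array left out it ran from 0 to 1. The median of the 89 genes relative to all genes stayed positive, from 0.07 (quantile normalization with a pseudocount of 16) to 0.37 (without replicate 2 of the group labelled Ets1-/-), and that of complex V was 0.049 under the former, against 0.27. Intervals within a 2-fold change numbered 60 to 78 of 79 subunits. With the replicate block, 1 of the 89 genes was called (Cox6a2, limma adjusted p = 0.0469), Myc was not (0.110), and calls over all genes went from 413 to 311. Same-numbered arrays correlated at -0.03, -0.04 and -0.09 (Spearman, deviations from group means). No array correlated best with its own number, and the numbers were not taken as pairs. Up to 8 of the 30 genes named by rule changed sign (median centring), and neither Cox6a2 nor Myc did. Calls over all genes were 798 with quantile normalization, 745 with median centring, 777 with cyclic loess, 907 with the pseudocount (484 higher and 423 lower, against 287 and 126), 611 (347 and 264) and 541 (231 and 310) with genes past the median and the 75th percentile, 1172 with a trend and robust prior, 1019 with array weights, 1350 with quantile normalization and the pseudocount, and 190 to 379 with an array left out. The cause of these differences was not tested. No detection call was available to say which signals exceeded background.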

Other observations

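Of 164 measured genes of assembly, electron carriers, the tricarboxylic acid cycle, the mitochondrial ribosome and import, 5 had an unadjusted limma p under 0.05 (2 higher and 3 lower, against 4.54% and 8.62% of all genes) and 0 passed the adjusted threshold; the 5 are named after their values were seen. Lyrm7, an assembly factor that handles the Rieske protein of complex III, had 6.43, 6.96 and 6.60 on the wild-type arrays and 5.18, 5.81 and 6.36 on the arrays labelled Ets1-/- (-0.88, limma adjusted p = 0.318). Its groups did not overlap, while Uqcrfs1, the Rieske protein itself, was at -0.04. Sdhaf4, an assembly factor of complex II, was at 1.16 (limma adjusted p = 0.376), while its partner Sdha was at 0.01. In the tricarboxylic acid cycle, Fh1, fumarase, was at -0.84 and Suclg2, a subunit of succinyl-CoA ligase, at 0.55, with limma adjusted p of 0.355 and 0.338. Mrps5 of the mitochondrial ribosome was at -0.85 (limma adjusted p = 0.354). Timm8b, a small import chaperone whose gene lies head-to-head with Sdhd, was at 0.37 (limma adjusted p = 0.554), with its groups not overlapping. Groups did not overlap for 1 of 37 assembly factors in the higher direction and 2 in the lower. For the 21 import genes the counts were 2 and 0, against 5.76% and 16.1% of all genes.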
